A study of Drosophila melanogaster with 6 samples.

Results

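Cytochrome P450 enzymes are the members described here, chosen as every probe set whose single gene symbol in the array annotation starts with Cyp and a digit. The rule gave 85 of 18769 probe sets, for 83 of 11982 genes, and 2 of the probe sets belong to cyclophilins, Cyp1 and Cyp40, which are peptidyl-prolyl isomerases that share only the prefix. The other 83 probe sets stand for 81 P450 genes, of 83 such genes in the RefSeq gene table, since Cyp12e1 and Cyp18a1 had a pair of probe sets each. Total RNA came from dechorionated Drosophila melanogaster embryos at stages 12 to 13, 3 collections from 6xbcd mothers and 3 from 2xbcd mothers, the controls. Bicoid (bcd) is a maternal transcription factor that patterns the anterior of the embryo, and the mothers carried 6 or 2 copies of its gene. All fathers were of the TT16 line, and the mothers were bcd+t8 females for 6xbcd and TT16 females for 2xbcd. The mothers' stock, their bcd copies and the embryos' own genotype therefore changed together and cannot be told apart. The RNA on an array, of the Drosophila Genome 2.0 design, came from over 100 fertilised eggs, laid within 90 min and kept for 8 h at 25 degrees. The bcd transcript itself read 2335, 1497 and 1375 on the 6xbcd arrays and 861, 546 and 301 on the 2xbcd arrays. As stated by the design text, the arrays form 3 pairs by replicate number, from independent RNA samples.

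P450 enzymes are heme proteins that insert oxygen into small lipophilic molecules, with electrons passed on by a reductase in the endoplasmic reticulum or by a ferredoxin in mitochondria. Insect P450s fall into the CYP2, CYP3, CYP4 and mitochondrial clades. Some make or break down hormones and cuticle lipids during development, while many of the CYP3 and CYP4 enzymes are known for handling plant toxins and insecticides, often from genes in tandem clusters. In fly larvae and adults such enzymes are known from midgut, Malpighian tubules and fat body.

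The transcripts of 45 of 83 P450 probe sets were detected, with a present call, on 3 or more of the 6 arrays and were tested, a share of 54.2% beside 54.0% of all 18769 probe sets. Of these 45, 31 were called present on all 6 arrays, 8 on 5 and 6 on 4. Another 16 probe sets were present on 1 or 2 arrays and 22 on none, so nothing can be said of their change. Detection varied among the clades. In the CYP2 clade 4 of 5 probe sets were tested, in the CYP3 clade 25 of 37, in the mitochondrial clade 6 of 9 and in the CYP4 clade 10 of 32. The CYP4 clade held 14 of the 22 that were absent on every array. These were Cyp311a1, Cyp312a1, Cyp313a2, Cyp313a4, Cyp313a5, Cyp318a1, Cyp4aa1, Cyp4ac2, Cyp4ae1, Cyp4d20, Cyp4d21, Cyp4e3, Cyp4p2 and Cyp4p3, of which Cyp4d21 is known as a target of the sex determination pathway in adults. The other absent ones were Cyp303a1 of the CYP2 clade, Cyp28c1, Cyp308a1, Cyp317a1, Cyp6g2 and Cyp6t3 of the CYP3 clade, and the mitochondrial Cyp12a5 and Cyp12b2. Just below the detection limit, with 1 or 2 present calls, lay Cyp28d2, Cyp6a18, Cyp6a19, Cyp6a20, Cyp6a21, Cyp6w1, Cyp9h1, Cyp313a1, Cyp313a3, Cyp316a1, Cyp4ac1, Cyp4c3, Cyp4d1, Cyp4d8, Cyp4g15 and 1 probe set of Cyp12e1. No P450 probe set had exactly 3 present calls, while 9 had 2 and 6 had 4. By chromosome, 21 of 33 probe sets on 2R, 7 of 13 on 2L, 2 of 6 on 3L, 7 of 16 on 3R and 8 of 15 on the X were tested. These counts are descriptions, and the difference between clades was not tested.

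**Figure D1:**
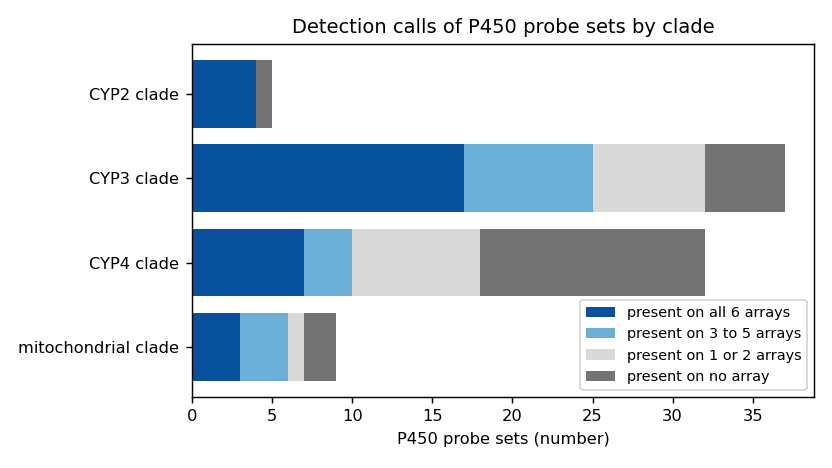
Bars count P450 probe sets (x axis) in each clade (y axis) by the number of arrays with a present call. The 14 CYP4 probe sets that were present on no array form the longest dark grey stretch, and 17 of 37 CYP3 probe sets were present on all 6 arrays.

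Neighbouring P450 genes often differed in detection. The gene table held 17 runs of P450 genes with at most 1 other protein-coding gene between members. On this array these runs held 46 of the probe sets, 25 of them tested. Of these runs, 7 held both a tested probe set and one that was absent on all arrays. The runs of Cyp12d1-d and of Cyp9f2 had only 1 probe set each here, so they could not differ in this way. In the run on 2R of Cyp6g1, Cyp6g2 and Cyp6t3, Cyp6g1, whose overexpression is known for DDT resistance, was present on 4 arrays, while Cyp6g2 and Cyp6t3, a gene known from ecdysone synthesis, were absent on all. In the Cyp6a run on 2R, of 9 probe sets, Cyp6a22, Cyp6a17, Cyp6a23, Cyp6a9 and Cyp6a8 were tested and Cyp317a1 was absent throughout. Tandem copies are similar in sequence, and binding of a neighbouring copy's RNA to a probe set was not tested.

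In the comparison of 6xbcd with 2xbcd embryos, 1 of the 45 P450 probe sets passed the test, and it fell. This was Cyp12d1-d, a mitochondrial P450 gene on 2R that is known from insecticide responses. Its share of 2.22% of the P450 probe sets stands beside 1.32% of all 10137 tested probe sets called in either direction, and beside 0.572% called lower. No P450 probe set passed in the other direction, in which 0.75% of all were called. At an unadjusted p under 0.05 the number was 5 of 45, beside 14.9% of all. A share this near the background is no result about the family. The test was limma with the replicate number as a block, on log2(signal + 16), with p values adjusted over all 10137 probe sets.

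Cyp12d1-d read 1494, 1184 and 1504 on the 6xbcd arrays and 2231, 2327 and 2614 on the 2xbcd arrays, in the order of the replicate number. The groups did not overlap, and every pair had the lower signal in 6xbcd. The 6xbcd mean of 1394 ± 182 and the 2xbcd mean of 2391 ± 199 (SD, n = 3 each) were 1.71-fold apart on the log2(signal + 16) scale. That is a log2 change of -0.78, with an SE of 0.0858, a 95% interval from -0.99 to -0.56 and a limma adjusted p of 0.0224. Each pair was also called a decrease in the authors' deposited table, where the log2 ratios were -0.6, -0.9 and -0.8. In bulk RNA, fewer cells that express a gene and less RNA per cell cannot be told apart.

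Cyp12d1-p is the near-identical tandem neighbour of Cyp12d1-d, and had no probe set of its own. A probe set that the annotation gives to both copies lies outside the rule for members, but bears on the same transcripts. It read 717, 618 and 752 on the 6xbcd arrays and 1283, 1083 and 1209 on the 2xbcd arrays. Again the groups stood apart, and the signal was lower in 6xbcd in every pair. This shared probe set also fell, with a log2 change of -0.77, an SE of 0.0680 and a limma adjusted p of 0.0168. Signals of both probe sets may come from either copy, so that the fall cannot be given to 1 of the copies. The call of Cyp12d1-d was lost without the intensity trend (limma adjusted p = 0.162), without replicate 1 (0.0600) and without replicate 2 (0.163). Leaving out 1 array of those pairs largely repeats leaving out the pair, since the partner left alone adds nothing to the change. The limma adjusted p values were then 0.0765 and 0.0804 for 2xbcd and 6xbcd replicate 1 and 0.135 and 0.142 for replicate 2. Its log2 change stayed between -0.88 and -0.68 in all of these fits.

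**Figure D2:**
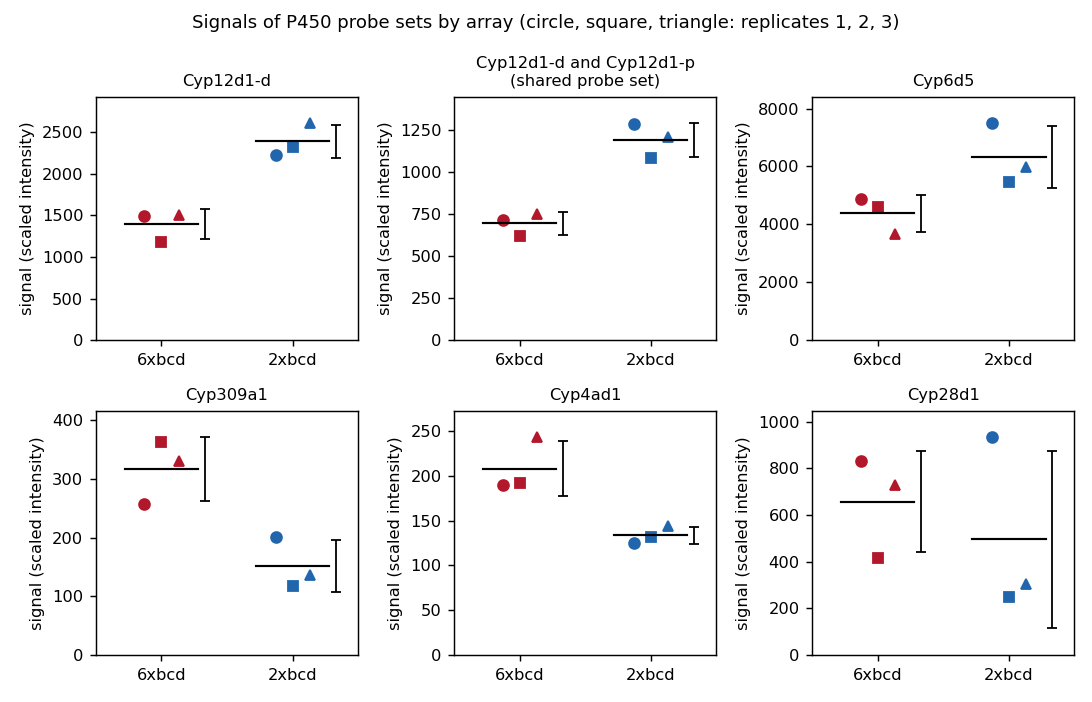
Points give the deposited signal (y axis, scaled intensity, each panel with its own scale from 0) of 6 probe sets on the 3 arrays of 6xbcd (red) and of 2xbcd (blue), with the mean as a line and the SD as a bar. Cyp12d1-d, the shared Cyp12d1 probe set and Cyp6d5 lie lower in 6xbcd without overlap, Cyp309a1 and Cyp4ad1 lie higher without overlap, and the groups of Cyp28d1 overlap.

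Other mitochondrial P450s did not pass. Cyp301a1, known for adult cuticle formation, read 190, 286 and 115 in 6xbcd and 158, 275 and 125 in 2xbcd embryos. Its arrays rose and dropped together by replicate number, with the highest signal of each group on replicate 2, and the log2 change was 0.06 (95% interval -0.33 to 0.46, limma adjusted p = 0.894). Cyp12c1 read 739, 561 and 404 in 6xbcd and 854, 341 and 483 in 2xbcd embryos, so that the groups overlapped widely. Its log2 change was 0.08 (95% interval -0.42 to 0.58). Cyp49a1 read 92.1, 72.4 and 62.2 in 6xbcd and 60.4, 59.6 and 35.6 in 2xbcd embryos, without overlap, and had a log2 change of 0.44 (limma adjusted p = 0.402). For Cyp12e1 the tested probe set lay lower on every 6xbcd array, at 33.9, 19.9 and 38.3 against 45.1, 46.8 and 42.5, at a log2 change of -0.40 (limma adjusted p = 0.502). Of the 6xbcd arrays only replicate 3 had a present call for it. In the authors' deposited table its log2 ratios were 0.1, -1.3 and 0.4, none called a change. The other probe set of Cyp12e1 had a present call on 1 array and was not tested. Cyp12a4, known from lufenuron resistance, had a log2 change of 0.33 (limma adjusted p = 0.611).

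Among the CYP3 enzymes, none of the 25 tested probe sets passed, and 19 had log2 changes above 0. Cyp309a1, on 2L, had the highest log2 change of all tested P450s, at 1.01 (SE 0.250). It read 257, 362 and 331 in 6xbcd and 201, 117 and 137 in 2xbcd embryos. All 6xbcd arrays lay above all 2xbcd arrays, and the pair differences were 0.33, 1.51 and 1.18 on the log2 scale. The 95% interval of the change ran from 0.38 to 1.63, while the limma adjusted p over all probe sets was 0.171. In the authors' deposited table each pair had an increase call, at log2 ratios of 0.4, 1.8 and 1.3. Among the 45 P450 probe sets it was the 1 with 3 such calls, beside 1.39% of all tested probe sets. For its neighbour Cyp309a2 the log2 change was 0.25 (limma adjusted p = 0.751), and 6xbcd replicate 3 gave the lowest of its 6 signals, 11.8.

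Cyp6d5, on 3R, lay lower in 6xbcd. It read 4878, 4587 and 3673 in 6xbcd and 7510, 5472 and 5996 in 2xbcd embryos, and every 6xbcd array was below every 2xbcd array. The log2 change was -0.53 (SE 0.103, 95% interval -0.78 to -0.27), and the limma adjusted p of 0.106 missed the threshold. Decrease calls for every pair stood in the authors' deposited table, at log2 ratios of -0.7, -0.2 and -0.7. Cyp6d5 and Cyp12d1-d were the 2 tested P450 probe sets with 3 decrease calls, beside 1.01% of all tested probe sets.

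Several other CYP3 genes had their low signals on the same control arrays. Cyp28d1, known from responses to plant toxins, read 830, 417 and 728 in 6xbcd and 934, 247 and 306 in 2xbcd embryos. Replicate 1 was high in both groups, and replicates 2 and 3 of 2xbcd were the lowest of all. Its log2 change was 0.59 (95% interval -0.05 to 1.22, limma adjusted p = 0.367), made of pair differences of -0.17, 0.72 and 1.21. Cyp6a17, known from temperature preference in adult flies, read 125, 101 and 108 in 6xbcd and 126, 62.3 and 33.7 in 2xbcd embryos. The log2 change of 0.62 (limma adjusted p = 0.404) again came from pairs 2 and 3, since pair 1 differed by -0.02. Cyp6a13 gave 72.4, 54.2 and 52.6 in 6xbcd and 74.1, 28.9 and 16.9 in 2xbcd embryos, at a log2 change of 0.56 (limma adjusted p = 0.425). In both genes 2xbcd replicate 1 was above every 6xbcd array, while 2xbcd replicates 2 and 3 lay below all others. Cyp6a8, a gene linked to DDT resistance, read 218, 345 and 358 in 6xbcd and 231, 269 and 191 in 2xbcd embryos (log2 change 0.37, limma adjusted p = 0.455). Cyp6a2, also known from insecticide resistance, had pair differences of opposite sign, 0.79, -1.06 and 0.44 on the log2 scale, and a log2 change of 0.06 with a 95% interval from -0.91 to 1.03.

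Further named CYP3 probe sets had log2 changes between -0.15 and 0.26. Cyp6a16 read 1172, 1201 and 1394 in 6xbcd and 1022, 1297 and 1241 in 2xbcd embryos, and a log2 change of 0.08 (95% interval -0.12 to 0.28). Cyp310a1 read 704, 644 and 820 in 6xbcd and 631, 589 and 581 in 2xbcd embryos, without overlap. Its log2 change was 0.26 with a 95% interval from 0.00 to 0.51, and its limma adjusted p was 0.325. Cyp9f2 had a log2 change of -0.05 (95% interval -0.45 to 0.36) and Cyp9b2 of -0.15 (-0.87 to 0.56). Cyp6g1, at 41.0, 37.1 and 24.9 in 6xbcd and 33.9, 23.6 and 29.3 in 2xbcd embryos, had a log2 change of 0.16 (limma adjusted p = 0.804). Its signals were near those of absent calls, where the offset of 16 holds back the fold.

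None of the 10 tested CYP4 probe sets passed, and 7 had log2 changes above 0. Cyp4ad1, on 2R, read 189, 192 and 243 in 6xbcd and 125, 132 and 144 in 2xbcd embryos. The groups did not overlap, the log2 change was 0.58 (SE 0.156, 95% interval 0.19 to 0.97) and the limma adjusted p was 0.193. It lies in a run with Cyp4e2 and Cyp4e1, whose groups overlapped. Cyp4e2 read 4577, 4155 and 4030 in 6xbcd and 4594, 3763 and 4390 in 2xbcd embryos, and its log2 change of 0.00 had a 95% interval from -0.18 to 0.19, the narrowest among the named P450 probe sets. Cyp4e1 read 61.0, 179 and 64.4 in 6xbcd and 72.8, 144 and 96.2 in 2xbcd embryos, with replicate 2 high in both groups and a log2 change of -0.13.

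Cyp4g1 makes the hydrocarbons of the cuticle surface in oenocytes, the fly's lipid-processing cells of the body wall. Its signals were 192, 209 and 155 in 6xbcd and 208, 177 and 83.5 in 2xbcd embryos, and the low value of 2xbcd replicate 3 stood apart from the other arrays. The log2 change was 0.30 (95% interval -0.24 to 0.84, limma adjusted p = 0.566). Its paralogue Cyp4g15 had a present call on 1 array, with signals between 5.10 and 38.2, and was not tested. Cyp4d2, on the X, read 131, 199 and 172 in 6xbcd and 243, 223 and 225 in 2xbcd embryos, without overlap and lower in 6xbcd. Its log2 change was -0.44 (95% interval -0.90 to 0.01, limma adjusted p = 0.344). Cyp4s3, also on the X, was dim, at 21.1, 38.5 and 45.1 in 6xbcd and 27.7, 11.4 and 4.9 in 2xbcd embryos. It had a present call on every 6xbcd array but only on replicate 1 of 2xbcd, so it passed the detection filter through 6xbcd. Its log2 change was 0.77 (SE 0.388, limma adjusted p = 0.427), with pair differences from -0.24 to 1.55.

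In the CYP2 clade the 4 tested probe sets had log2 changes from 0.20 to 0.42 and none passed. Cyp18a1 encodes the enzyme that inactivates the moulting hormone 20-hydroxyecdysone. One of its probe sets read 140, 166 and 167 in 6xbcd and 138, 138 and 74.6 in 2xbcd embryos, and the other 134, 220 and 127 against 159, 151 and 80.9. Both were lowest on 2xbcd replicate 3, and their log2 changes were 0.42 and 0.28 (limma adjusted p = 0.477 and 0.595). Cyp305a1 had a log2 change of 0.20 (95% interval -0.29 to 0.69). Cyp304a1 spread from 30.6 to 163 within 2xbcd and from 77.9 to 107 within 6xbcd embryos, so that its log2 change of 0.20 had a 95% interval from -0.84 to 1.24. Cyp303a1, known from the development of sensory bristles, was absent on all arrays, with signals between 0.60 and 13.8.

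Beyond the named P450 probe sets, 19 more were tested, and their log2 changes lay between -0.07 and 0.55, 15 of them above 0, with limma adjusted p values between 0.437 and 0.997. Cyp6a23, next to Cyp6a17, had the highest, with signals of 220, 118 and 252 in 6xbcd and 230, 84.9 and 93.3 in 2xbcd embryos. Cyp6u1 lay near 0, with signals of 249.9, 352 and 350 in 6xbcd and 285, 356 and 348 in 2xbcd embryos and a 95% interval of the log2 change from -0.35 to 0.23.

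**Figure D3:**
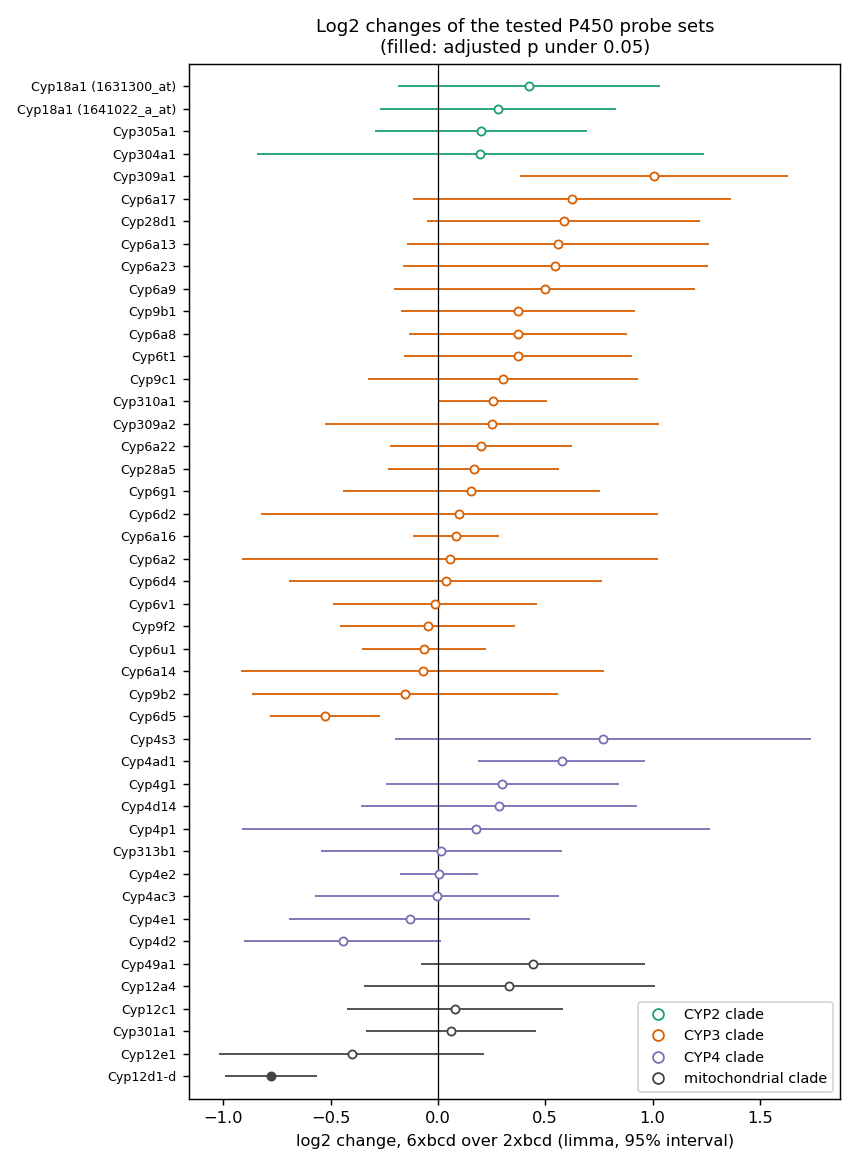
Points give the log2 change of each tested P450 probe set, 6xbcd over 2xbcd (x axis), with its 95% interval from limma, and colours give the clade. The filled point of Cyp12d1-d at -0.78 is the 1 that passed an adjusted p of 0.05, and 34 of 45 points lie above 0.

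Positive changes were more frequent among the P450s than in the whole table, and they came from pairs 2 and 3. The log2 change was above 0 for 34 of 45 P450 probe sets (75.6%), beside 52.7% of all, and its median was 0.20 beside 0.01. In pair 1, however, 16 of 45 were higher in 6xbcd (35.6%, beside 48.6% of all), with a median difference of -0.08. In pairs 2 and 3 it was 31 of 45 each (68.9%, beside 53.5% and 49.3% of all), with medians of 0.24 and 0.46. These shares are descriptions of 6 arrays and not a test. Some of the 45 passed the detection filter through the group where they were high, mostly 6xbcd. Cyp4s3, Cyp9b1 and Cyp6g1 had 3 present calls in 6xbcd and 1 in 2xbcd, while the tested Cyp12e1 probe set had 1 and 3. Part of the surplus of positive changes, and of the low control signals described next, may thus be built in. The share among the 31 present on all arrays was not counted. In the authors' deposited table, increases were called for 2, 8 and 18 of the 45 in pairs 1, 2 and 3, beside 4.41%, 6.76% and 13.8% of all tested probe sets. Decreases in the authors' deposited table numbered 3, 3 and 4, beside 6.18%, 4.27% and 9.03%.

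The pattern followed the control arrays. On 2xbcd replicate 3, the median P450 probe set lay 0.43 below its own mean on the log2 scale, and on 2xbcd replicate 2 it lay 0.10 below. On 2xbcd replicate 1 it lay 0.19 above, further than on any 6xbcd array, where the medians were 0.14, 0.13 and 0.04. Over all tested probe sets these medians stayed between -0.00 and 0.02. For 16 of 45 P450 probe sets, 2xbcd replicates 2 and 3 were the lowest of the 6 arrays, beside 13.6% of all tested probe sets. Of these, 11 were of the CYP3 clade (among 25), 2 of the CYP2 clade (among 4), 2 mitochondrial (among 6) and 1 of the CYP4 clade (among 10). The reverse, both arrays highest, held for 1, Cyp12d1-d, beside 11.6% of all. In the run of Cyp6a genes on 2R, 4 of 5 tested probe sets showed the low pattern, the other being Cyp6a8.

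**Figure D4:**
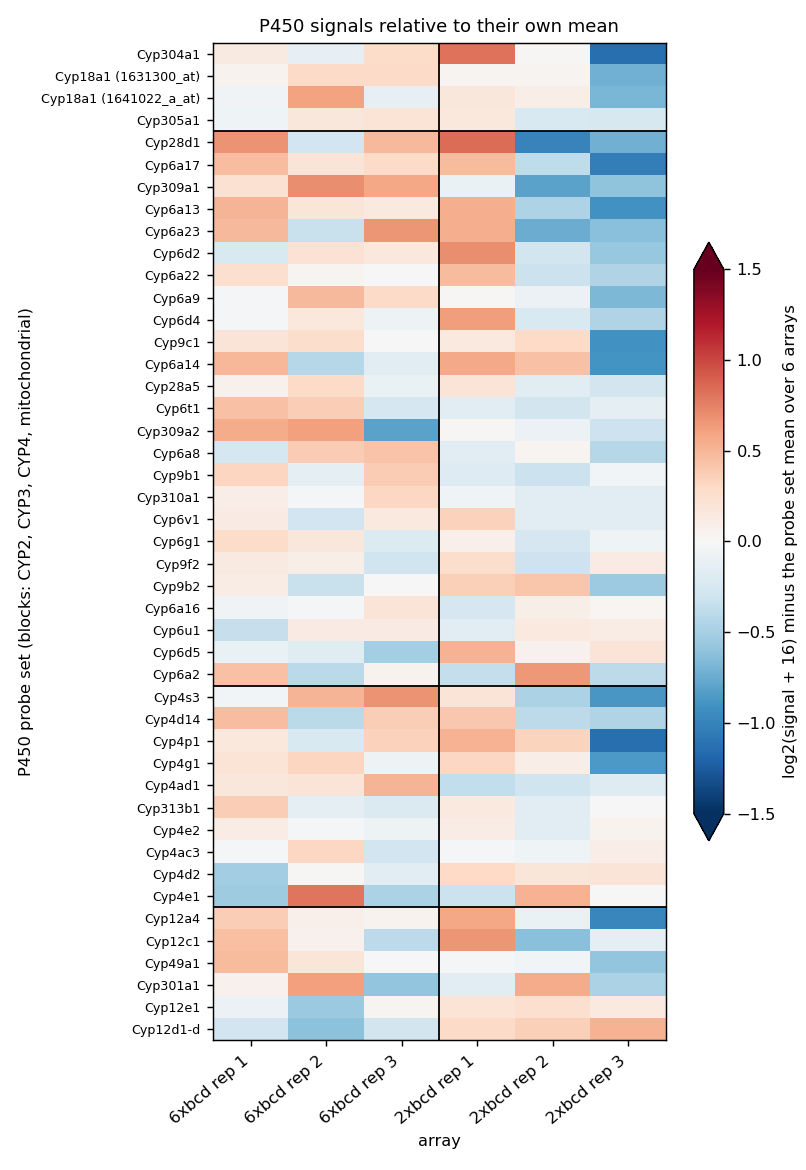
Colours give log2(signal + 16) of each tested P450 probe set (rows, in blocks by clade) on each array (columns) minus its own mean, from blue (lower) to red (higher). The 2 right-hand columns, 2xbcd replicates 2 and 3, hold most of the darker blue of the CYP3 rows, while Cyp12d1-d in the last row is blue in 6xbcd and red in 2xbcd.

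These same arrays stood apart over the whole table. On the main axis of the arrays, which held 53.5% of the variance, 2xbcd replicates 2 and 3 lay at 19.1 and 39.4 and 6xbcd replicate 2 at 6.87, while the other 3 arrays lay between -22.3 and -21.4. Part of the muscle markers moved with it. For 7 of 12 fixed muscle genes with a probe set (a probe set of sls absent), the summed signal was 13030, 7862 and 5293 on the 2xbcd arrays and between 7690 and 10534 on the 6xbcd arrays. Of the 8 tested muscle probe sets 5, of the contractile genes Mlc1, Mlc2, Tm2, bt and up, were lowest on 2xbcd replicate 3, while both of sls and that of Hand were not, and Hand was highest there at 1140. Fat body markers (4 of 9 genes measured, Fbp1 absent) summed to between 21385 and 23761 in 2xbcd and between 16565 and 21604 in 6xbcd embryos. Most of that sum was apolpp, at 19590 to 21834 in 2xbcd and 13554 to 19425 in 6xbcd embryos. The other tested fat body marker, srp, went the other way, with a log2 change of 0.26. Oenocyte markers (8 of 8, with FASN2 and eloF absent) lay between 3105 and 3660 in 2xbcd and between 3338 and 3833 in 6xbcd embryos. Malpighian tubule markers (8 of 10, with a probe set each of Irk1 and ct absent) lay between 10454 and 11914 and between 10543 and 11280, in the same order. Midgut markers (7 of 8, of which srp is also a fat body marker) were higher in each 6xbcd array, at 6986 to 7748 against 6308 to 6802. Without srp the sums overlapped, at 4643 to 5642 against 4069 to 5048, and Try29F, Jon65Aiv and grn each had their highest signal on a 2xbcd array. None of the probe sets in these lists passed the test, beside 1.32% of all tested probe sets, and their part in the P450 pattern was not tested.

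Further marker lists for stage and origin gave similar limits. Neural precursor genes (10 of 10 measured) summed to between 13412 and 16576 in 6xbcd and between 14324 and 18298 in 2xbcd embryos. Late epidermis genes (9 of 10, with Ccp84Ac, ple and a probe set of f absent) lay between 4646 and 5765 in 6xbcd and between 4488 and 4882 in 2xbcd embryos. Maternal RNAs (8 of 10, bcd included, with a probe set of bcd absent) lay between 6544 and 7452 and between 5014 and 5690, in the same order. These sums hold bcd itself, the gene whose copies differed, with means of 1736 and 569 on its tested probe set. A sum without bcd was not made, so the gap is no result about maternal RNAs in general. Of 10 tested probe sets 8 had positive changes, while stau (-0.27) and gcl (-0.04) were lower in 6xbcd. The 1 member that passed was bcd (limma adjusted p = 0.0189, and 0.118 without the replicate block).

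The groups did not overlap for 5 P450 probe sets with higher 6xbcd signals, beside 7.38% of all tested probe sets, and for 4 with lower ones, beside 8.68%. The first were Cyp309a1, Cyp310a1, Cyp4ad1, Cyp49a1 and 1 of the Cyp18a1 probe sets, and the second Cyp12d1-d, Cyp12e1, Cyp4d2 and Cyp6d5. All of the first but Cyp4ad1 were also among the 16 with the low pattern on 2xbcd replicates 2 and 3, and Cyp12d1-d was the 1 with the reverse. Without overlap of the groups, either pattern needs only that 2xbcd replicate 1 be the highest or lowest control array. This sharing of members is therefore largely built in. With that axis entered as covariate instead of the pairs, an alternative chosen after seeing the data, Cyp12d1-d was again the 1 P450 probe set called, lower in 6xbcd, and the change of Cyp28d1 turned to -0.11 (limma adjusted p = 0.940). Under that covariate the log2 change of Cyp6a17 went from 0.62 to 0.14, that of Cyp6a13 from 0.56 to 0.08 and that of Cyp4g1 from 0.30 to 0.03, while Cyp309a1 stood at 0.88, Cyp4ad1 at 0.60 and Cyp6d5 at -0.62. The axis was computed from these same signals, and 2xbcd replicates 2 and 3 lay at its high end, so that it overlaps with the group difference. Smaller changes of probe sets that were low on those arrays are therefore partly built in.

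Genes that work with P450s were read from lists too. Electron donors were represented by 4 of 6 genes, and 0 of 4 probe sets passed, beside 1.32% of all tested probe sets. The lists of this paragraph are short, so that 0 calls beside that share are no result about their genes. For Cpr and dare no probe set was found by symbol, so nothing can be said of their change. Cyt-b5, which passes electrons to P450s, had a log2 change of -0.15 (limma adjusted p = 0.426), Fdx2, a mitochondrial ferredoxin, -0.15, and CG5946, a cytochrome b5 reductase, 0.15. Heme synthesis had 0 of 9 probe sets past the threshold, with Uros1 at -0.67 (limma adjusted p = 0.223), Pbgs at -0.22 and Alas, which catalyses the first step, at 0.21. Regulators of xenobiotic genes had 0 of 8, with maf-S, a partner of the Nrf2 homologue, at -0.16 (limma adjusted p = 0.325), cnc, that homologue, at 0.26, and the nuclear receptor Hr96 at -0.20. Halloween genes, which make ecdysone and include P450s under names of their own, had 0 of 4, with spok at -0.25, dib at -0.10 and shd at -0.09 (limma adjusted p from 0.682 to 0.881). Only 4 of the 8 Halloween genes were tested. For phm no probe set was found by symbol, and sad, sro and a probe set of shd were absent on all arrays.

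The conjugating enzymes that act after P450s in detoxification gave 1 call. Of 31 tested probe sets of glutathione transferases 0 passed, beside 1.32% of all tested probe sets. Positive changes numbered 24, beside 52.7% of all, and the median change of the 31 was 0.21. GstE1 had a log2 change of 0.55 (limma adjusted p = 0.115), GstE3 of 0.36 and GstE7 of 0.33. Of 21 tested probe sets of UDP-glycosyltransferases 1 passed, beside the same 1.32% of all. Positive changes numbered 16, beside 52.7% of all, and the median change of the 21 was 0.18. Ugt36D1 read 1718, 1403 and 1566 in 6xbcd and 2374, 2015 and 2086 in 2xbcd embryos, and fell by 0.46 on the log2 scale (SE 0.0556, limma adjusted p = 0.0289). Without the replicate block its adjusted p was 0.119. Ugt49B2 had a log2 change of 1.11 (limma adjusted p = 0.122) and Ugt35D1 of -0.39 (0.170).

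On single arrays the conjugating enzymes also had their lowest medians on 2xbcd replicate 3. The median glutathione transferase lay 0.26 below its own mean on 2xbcd replicate 3 and 0.12 below on 2xbcd replicate 2, and the median UDP-glycosyltransferase 0.30 and 0.04 below. The highest median of the glutathione transferases was on 6xbcd replicate 1, at 0.23, with 0.09 on 2xbcd replicate 1, where that of the P450s was highest. In 14 of 31 and 6 of 21 probe sets 2xbcd replicates 2 and 3 were the lowest arrays, beside 13.6% of all tested probe sets.

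**Figure D5:**
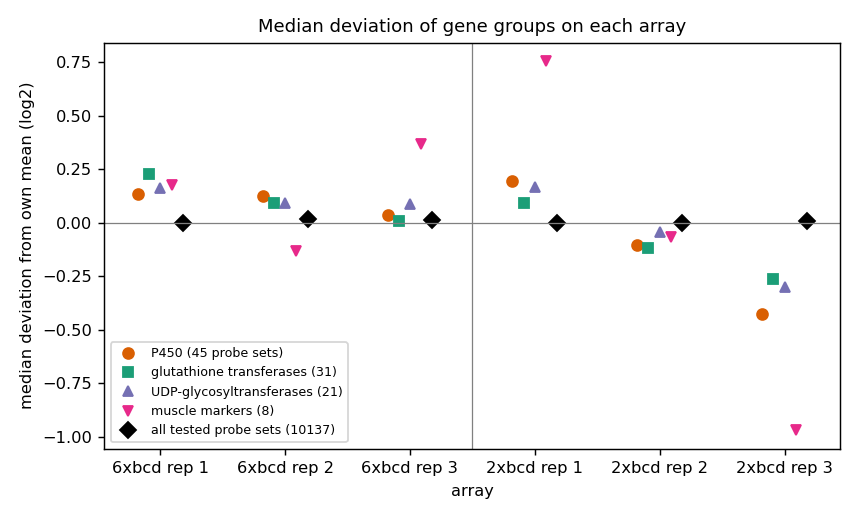
Points give the median over the tested probe sets of a group (y axis, log2 deviation from the own mean) on each array (x axis). On 2xbcd replicate 3 the P450s lie at -0.43, glutathione transferases at -0.26, UDP-glycosyltransferases at -0.30 and muscle markers at -0.97, while all tested probe sets stay within 0.02 of 0.

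The cyclophilins that the symbol rule also took in did not pass. Cyp1 read between 10475 and 12664 in 6xbcd and between 10070 and 12315 in 2xbcd embryos, at a log2 change of 0.06 (limma adjusted p = 0.848), and Cyp40 had -0.05 (0.879). Counts of P450s above leave both out.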

How the data were processed

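The signal per probe set and array was deposited by the authors as an intensity on a linear scale, made with GCOS per the submitters' processing notes without a stated version. A mean without the outer 2% at each end was 500.0 on every array. Per the file headers, the table also holds the authors' detection calls and, for each pair, their log2 ratio with a call of change and its p-value. A second deposited table held identical signals. The files name no batch. The number of arrays limits the precision.

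The scale for testing was log2(signal + 16), with no other normalization, for the 10137 non-control probe sets detected on 3 or more of 6 arrays. Their change was tested with limma 3.58.1 in R 4.3.3 (lmFit, then eBayes with trend, two-sided), blocked by replicate number, as the design text calls the experiments paired. P-values were adjusted by Benjamini-Hochberg, with a threshold of 0.05, and the fit was tested on simulated data. The labels call the replicates biological. Correlations between the deviations of same-numbered arrays were 0.437, 0.385 and -0.190, so the pairing rests on the text alone. Summaries used Python 3.11.15 and pandas 2.3.3.

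Chromosomes and gene order came from the RefSeq table of Release 6. Members named with values were those past the threshold, the 6 furthest changes in each direction, the 8 highest control signals, and genes with known roles. Cyp12a4, Cyp304a1, Cyp309a2, Cyp6a23 and Cyp6u1 were added after their values had been seen. Members and lists were chosen with earlier results of these data known. Alternatives were a fit without pairs, 2 other scalings (median, quantile), an offset of 1 or 64, other filters, eBayes without trend, a threshold of 0.1, the second table, 1 probe set per gene, and leaving out pairs or arrays. The covariate for the main axis was computed from the tested signals themselves and was added after seeing the data.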

Additional observations from a re-analysis of the deposited data

Results flagged for a closer look

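Signals outside the tested set drew attention for 2 P450 genes, because every 6xbcd array lay above every 2xbcd array and a 6xbcd array, but no 2xbcd array, had a present call. Cyp6a18, on 3R, had a mean signal of 28.2 ± 8.09 (SD, n = 3) in 6xbcd embryos, against 5.30 ± 5.86 in the controls, with a present call on 6xbcd replicate 3 alone. Cyp9h1, on 2R, had 30.2 ± 7.11 against 18.1 ± 8.12 (SD, n = 3), with a present call on 6xbcd replicate 1 alone. No fold is given, since most of these values were not above background. The present calls in 6xbcd were part of the choice and lend it no weight. Other untested P450 probe sets separated in either direction without a present call. Cyp4p3 was higher on every 6xbcd array, at 35.3, 18.5 and 20.5 against 1.2, 8.9 and 2.4. Cyp317a1 was lower, at 54.8, 56.5 and 50.3 in 6xbcd and 79, 61.2 and 65.8 in 2xbcd embryos, and Cyp4ac2 was also lower on every 6xbcd array. The share of all untested probe sets that separate in either direction was not counted. Groups of 3 arrays are too small for a check of single arrays that stand apart.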

How the results depend on the processing

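The call of Cyp12d1-d alone among the P450 probe sets was kept with median scaling, quantile scaling, both offsets, no filter, a present call on all 6 arrays, the other table, a threshold of 0.1, 1 probe set per gene, without the cyclophilins, and with the main axis as covariate. Without the replicate block it was kept too (limma adjusted p = 0.0283), while the calls over the whole table went from 134 to 97. That fit left 0 calls in the related lists, as Ugt36D1 was lost, and also lost the call of bcd (0.118). Without the intensity trend there were 0 P450 calls, 5 calls in all and 0 in the related lists, and with quantile scaling 2 in the related lists. Over the fits that leave out a pair or an array, P450 calls ranged from 0 to 1, calls in all from 5 to 306 and calls in the related lists from 0 to 3. In these fits an array left without its partner adds nothing to the change.

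With the main axis as covariate, 8 of 26 named tested probe sets had a change smaller by over 1.5 times, 4 a larger one and 5 a turned sign. Of the 26, 18 kept their sign under every alternative run, and 25 were called under none. Signs turned with the main axis as covariate for Cyp4e1 (0.25), Cyp28d1 (-0.11), Cyp12c1 (-0.21), Cyp4e2 (-0.040) and Cyp6a2 (-0.0020), with median scaling for Cyp4e2 (-0.020), and with quantile scaling for Cyp301a1 (-0.046) and Cyp6a2 (-0.068). With a pair or an array left out, the log2 change ran from -0.23 to 0.24 for Cyp12c1, from -0.027 to 0.15 for Cyp301a1, from -0.34 to 0.042 for Cyp4e1, from -0.064 to 0.068 for Cyp4e2, from -0.31 to 0.61 for Cyp6a2, from -0.50 to 0.15 for Cyp9b2 and from -0.27 to 0.14 for Cyp9f2. None of these had passed, and the cause was not tested. Dim probe sets limit the family: 38 of 83 were not tested.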

Other observations

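A probe set that the annotation gives to both shn, a zinc finger gene, and Cyp6v1 read 715, 727 and 810 in 6xbcd and 652, 454 and 667 in 2xbcd embryos, at a log2 change of 0.36 (limma adjusted p = 0.273). The probe set of Cyp6v1 alone had a log2 change of -0.01 (limma adjusted p = 0.985). The shared one lies outside the rule, and its signal cannot be given to either gene.

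The 3' to 5' signal ratio of control transcripts, a measure of RNA integrity and labelling, was lowest on 6xbcd replicate 3 for actin (2.15), GAPDH (1.78) and eIF-4a (3.37) and highest on 6xbcd replicate 1 (2.88, 3.61 and 4.57). On 2xbcd replicates 2 and 3 actin gave 2.61 and 2.28, and the part of these ratios in the results was not tested.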
